A study of Mus musculus with 20 samples.

Results

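The choroid plexus epithelium is the sheet of ventricular epithelium that secretes cerebrospinal fluid, and 33 genes that mark it were followed through ribosome footprints and input RNA of mouse hippocampus. The members were taken by gene symbol from the deposited count table, which holds 18054 genes, and all 33 symbols were found in it. The epithelium draws ions and water out of the blood, closes the space between its cells with tight junctions, and carries hormones, vitamins and organic anions in both directions. It is known for making transthyretin in large amounts. In the brain it lies in the ventricles, next to the hippocampus, and belongs to a tissue other than the one named in the labels. Several members are also known from other cells: Enpp2 from oligodendrocytes, Trpm3 from neurons, Slc22a8 from brain endothelium and Igf2 from the leptomeninges.

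The mice carried the genotype Qtrt1-/- or were wild type. Together with its partner Qtrt2 the Qtrt1 protein inserts queuosine at the wobble position of 4 tRNAs, which read the codons of tyrosine, histidine, aspartate and asparagine, and the labels give no further detail of the deletion. Knockout animals were 3 females aged 6 months 21 days and 2 males, aged 6 months 18 days and 5 months 16 days. Wild-type animals were 3 females, of which female 1 was aged 6 months 22 days and the other 2 were aged 6 months 21 days, and 2 males of the same ages as the knockout males. Each animal gave 1 library of ribosome footprints, the mRNA fragments that ribosomes shield from nuclease, and 1 library of input RNA from the same lysate. Footprint libraries held 5357812 to 15517982 counts and input libraries 9000662 to 13637370. Qtrt1 had 1 to 10 footprint counts in the 5 knockout libraries, against 28 to 94 in the 5 wild-type libraries, and 24 to 29 input counts in knockout libraries, against 66 to 88 in wild-type libraries. Levels are given as CPM, counts scaled to a common library size by TMM within each kind of library. A gene was called where the edgeR quasi-likelihood test gave a Benjamini-Hochberg adjusted p under 0.05 over all genes tested, and each fold change is the log2 of knockout over wild type with the standard error of the fit.

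The stretch before the transcription start is shown for 3 members, chosen because each holds a motif linked to this epithelium or to the start of transcription. The sequences are the 250 bases before the start in RefSeq, on build GRCm38.p6 and read on the strand of the gene, with the motif in capitals. TAATCC, or GGATTA on the other strand, is the core that Otx2 and other homeodomain proteins of the bicoid class recognise, and TATAAA is the TATA box, searched on the gene's strand only. Kcnj13 at chr1:87394730-87394979 (minus strand) holds TATAAA 29 bases before the start, Car14 at chr3:95904686-95904935 (minus strand) holds TAATCC 61 bases before it, and Abca4 at chr3:122044210-122044459 (plus strand) holds TATAAA 119 bases and GGATTA 58 bases before it.
Kcnj13: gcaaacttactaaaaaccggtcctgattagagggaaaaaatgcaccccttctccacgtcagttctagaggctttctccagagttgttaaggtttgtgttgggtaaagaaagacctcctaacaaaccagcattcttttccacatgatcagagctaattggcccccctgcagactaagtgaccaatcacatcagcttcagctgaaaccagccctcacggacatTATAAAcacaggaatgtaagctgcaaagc
Car14: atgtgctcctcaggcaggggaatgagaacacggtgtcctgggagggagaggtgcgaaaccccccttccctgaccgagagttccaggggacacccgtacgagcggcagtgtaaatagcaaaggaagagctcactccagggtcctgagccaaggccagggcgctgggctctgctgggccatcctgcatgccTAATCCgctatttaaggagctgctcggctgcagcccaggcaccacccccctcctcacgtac
Abca4: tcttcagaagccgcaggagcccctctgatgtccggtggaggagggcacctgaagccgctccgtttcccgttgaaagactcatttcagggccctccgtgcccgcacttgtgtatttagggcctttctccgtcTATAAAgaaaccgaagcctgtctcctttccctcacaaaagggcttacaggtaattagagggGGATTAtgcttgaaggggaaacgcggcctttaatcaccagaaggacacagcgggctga
The RefSeq table held 38 such windows for 26 of the 33 members, and none was used here for Ttr, Enpp2, Lbp, Sostdc1, Clic6, Folr1 and Sulf1. TAATCC was found on either strand in 3 of the 38 windows (7.89%), those of Abca4, Car14 and Otx2, against 6.25% of 32851 windows of all genes. TATAAA was found in 4 of the 38 (10.5%), those of Abca4, Cldn2, Kcnj13 and Otx2, against 7.59% of all windows. The 2 motifs do not overlap in the sequences shown. Both shares lie near those of all genes, and a match describes letters and not a bound site.

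In female hippocampus the choroid plexus genes were on average higher in knockout than in wild-type libraries. The animals of each genotype differed widely, and few members passed the test. Female footprints rose in knockout animals for Slc22a8, the organic anion transporter OAT3, for Kcnj13, the potassium channel Kir7.1, and for Car12, a membrane-bound carbonic anhydrase. These 3 called members were 9.09% of the 33 tested, beside 7.06% of 13143 genes called in either direction and 2.81% called higher. Female input RNA rose in knockout animals for 1 of the 32 members tested, the cation channel gene Trpm3, beside 3.48% of 14164 genes called in either direction and 0.748% called higher. The median log2 fold change over all 33 members was 1.30 in female footprints, with 33 of 33 above 0, against a median of 0.003 over all genes tested. In female input RNA the median was 1.30, with 32 of 32 above 0, against 0.009 over all genes. In males no member was called in either assay, beside 0% of all genes, and the medians were −0.09 in footprints (13 of 33 above 0) and −0.09 in input RNA (8 of 32 above 0). An unadjusted p under 0.05 was held by 1 of 33 members in male footprints, beside 562 of 13143 genes. In male input RNA it was held by 0 of 32 members, beside 1246 of 14164 genes, and DESeq2 called 0 members in both.

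Most of the female difference came with wild-type females 1 and 2, whose libraries held the least RNA of these genes. The footprint level was lowest in wild-type female 1 for 23 of the 33 members and in wild-type female 2 for 7, and the input level was lowest there for 25 and 6. The mean log2 CPM over the 33 members was 4.91, 4.64 and 3.63 in footprints of knockout females, against 1.83, 2.15 and 4.27 in wild-type females. In males it was 4.99 and 4.54 in knockout animals, against 4.80 and 5.00 in wild-type animals. Wild-type female 3 thus lay above knockout female 3, close to the other knockout females, and all 4 males lay close together. Input RNA showed the same order, at 4.10, 3.86 and 2.76 in knockout females, against 1.21, 1.61 and 3.48 in wild-type females. With wild-type females 1 and 2 left out, a choice made after seeing the data, 1 member was called in female footprints (Slc22a8, log2 fold change 1.10 ± 0.20, edgeR adjusted p = 0.0313), beside 0.891% of all genes, and 0 in female input RNA, beside 3.46%. The medians were then 0.26 in footprints (25 of 33 above 0) and 0.23 in input RNA (25 of 32 above 0). Without wild-type female 3 instead, 25 members (75.8%) were called in female footprints, beside 4.26% of all genes, and 20 (62.5%) in female input RNA, beside 1.60%. Without the filter on low counts 17 members were called in footprints, beside 8.10% of all genes, and 4 in input RNA, beside 3.73%. In hippocampal lysates fewer epithelial cells in the dissected piece and less RNA per cell cannot be told apart.

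**Figure D1:**
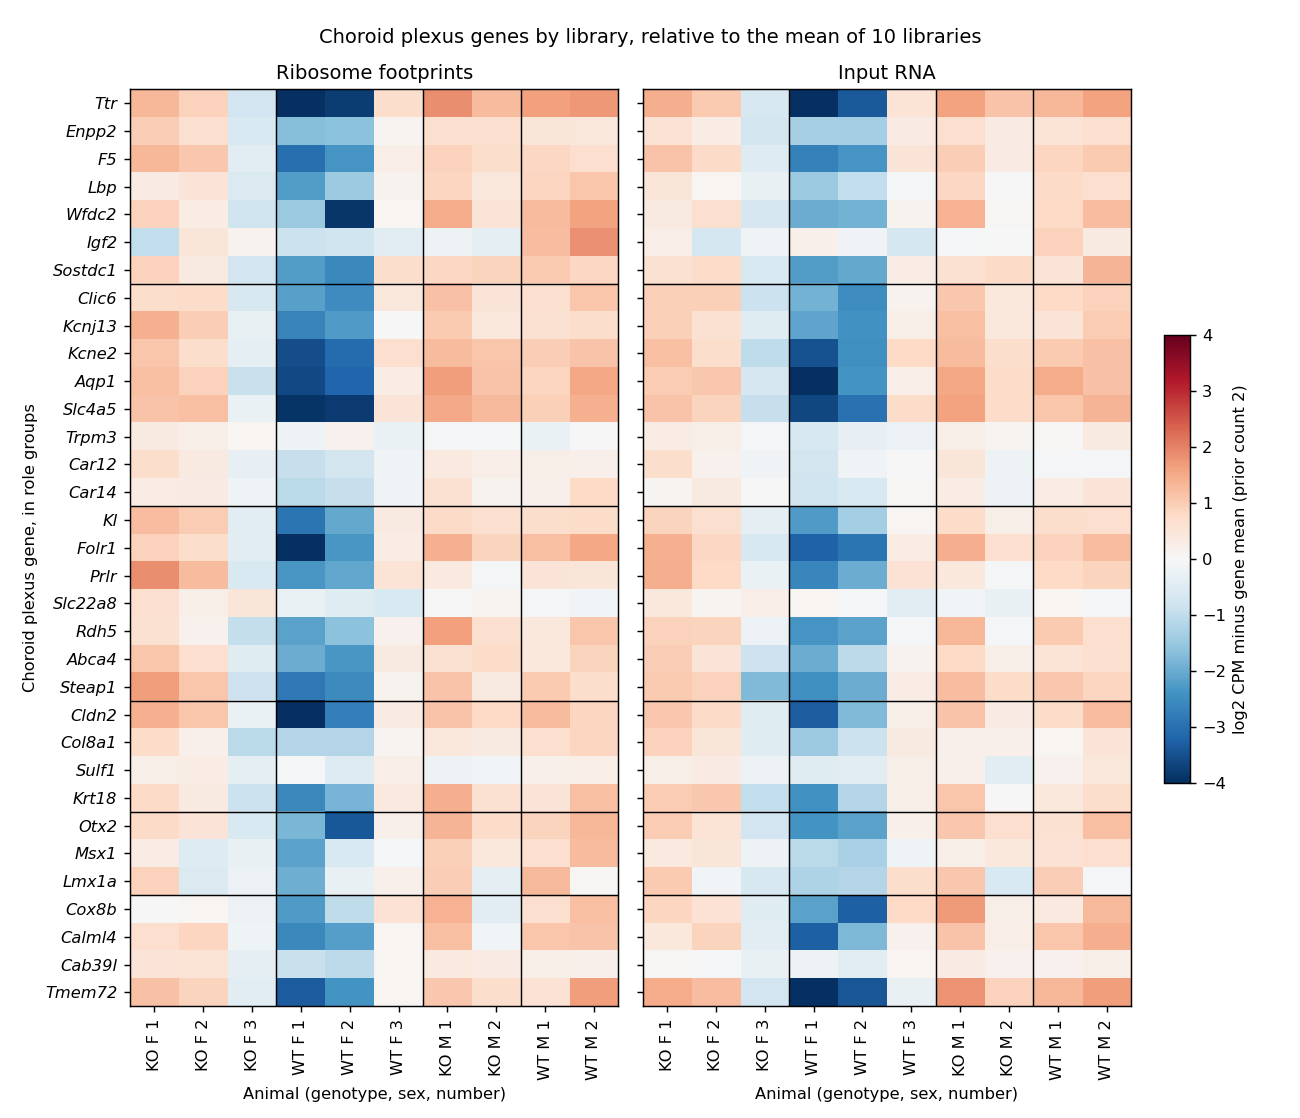
Level of each of the 33 choroid plexus genes in every footprint library and every input library, as log2 CPM relative to the gene's mean over the 10 libraries of that kind, with knockout libraries left of wild-type libraries within each sex. The lowest library is wild-type female 1 or 2 for 30 of the 33 genes in footprints and for 31 in input RNA.

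The spread over animals was wide for most members and narrow for a few. The highest footprint level of a member was a median of 18.0 times its lowest over the 30 members with a count in every library, and over 10 times for 22 of these 30. The ratio ran from 1.56 for Trpm3 to 108.8 for Cldn2, the claudin of leaky epithelia. In input RNA it had a median of 14.3 over 31 members and ran from 1.74 for Cab39l to 181.6 for the water channel gene Aqp1. Together the 33 genes took 0.1003% to 1.801% of all footprints of a library and 0.0617% to 0.598% of all input counts. Ttr alone took 0.0115% to 1.34% of footprints and ranked among all genes from place 1, in knockout male 1 and wild-type male 1, down to place 1852 in wild-type female 1.

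**Figure D2:**
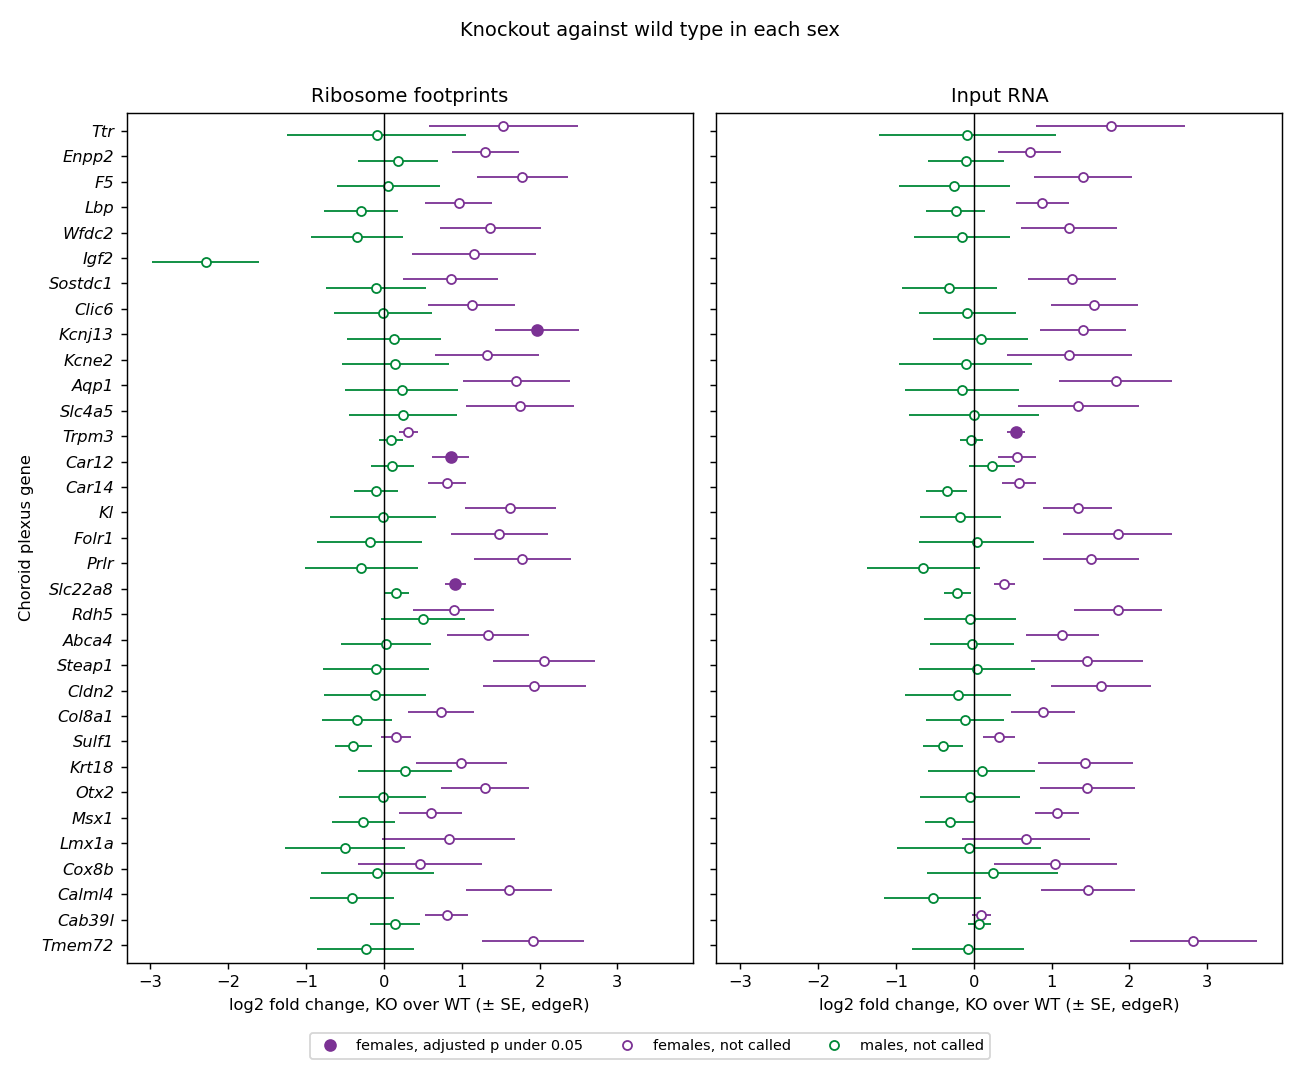
Log2 fold change of each member, knockout relative to wild type, in females and in males, for footprints and for input RNA, with standard errors from the edgeR fit and members called at an adjusted p under 0.05 marked. All 33 female footprint values lie above 0, with 3 called, and male values lie on both sides of 0, with none called.

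Among secreted proteins and carriers, edgeR called 0 of 7 members in female footprints and 0 of the 6 tested in female input RNA (DESeq2 0 in both, and an unadjusted p under 0.05 for 3 in each), with a median log2 fold change of 1.30 (0.86 to 1.78) in footprints. The unadjusted counts of this and the later role groups stand beside 3367 of 13143 genes in female footprints and 2851 of 14164 in female input RNA. Ttr encodes transthyretin, which carries thyroxine and, with retinol-binding protein, vitamin A. Its footprints stood at 8788, 6691 and 2046 CPM in knockout females, against 119, 252 and 5670 CPM in wild-type females, with 12800 and 8364 CPM in knockout males, against 10830 and 11680 CPM in wild-type males. Its input RNA stood at 3215, 2466 and 754 CPM in knockout females, against 43.4, 116 and 1741 CPM in wild-type females, with 3624 and 2636 CPM in knockout males, against 2982 and 3643 CPM in wild-type males. Both assays showed wild-type females 1 and 2 far below every other library. The female groups overlapped because wild-type female 3 lay above knockout female 3, and the male groups overlapped too. The log2 fold change was 1.54 ± 0.96 in female footprints (edgeR adjusted p = 0.334), 1.76 ± 0.96 in female input RNA (adjusted p = 0.334) and −0.09 ± 1.15 in male footprints (adjusted p = 0.996), none called.

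Enpp2 encodes autotaxin, a secreted enzyme that makes lysophosphatidic acid. Its footprints came to 4165, 3260 and 1382 CPM in knockout females, against 637, 665 and 2262 CPM in wild-type females, with 3288 and 3274 CPM in knockout males, against 2954 and 2839 CPM in wild-type males. Its input RNA came to 1245, 1018 and 498 CPM in knockout females, against 329, 320.5 and 1028 CPM in wild-type females, with 1312 and 1039 CPM in knockout males, against 1198 and 1321 CPM in wild-type males. The females overlapped in both assays, and in males both knockout footprint libraries lay above both wild-type ones while input RNA overlapped. The female log2 fold change was 1.30 ± 0.43 in footprints (edgeR adjusted p = 0.0785) and 0.72 ± 0.41 in input RNA (adjusted p = 0.352). F5 encodes coagulation factor V. Its footprints were 98.9, 83.3 and 29.4 CPM in knockout females, against 4.62, 7.55 and 47.9 CPM in wild-type females, with 74.7 and 64.97 CPM in knockout males, against 70.2 and 63.6 CPM in wild-type males. Input RNA of F5 came to 45.3, 34.7 and 14.4 CPM in knockout females, against 2.97, 3.81 and 29.1 CPM in wild-type females, with 40.3 and 25.8 CPM in knockout males, against 36.8 and 42 CPM in wild-type males. Again the lowest libraries in both assays were wild-type females 1 and 2, and the groups overlapped in both sexes. F5 differed by 1.78 ± 0.59 in female footprints (edgeR adjusted p = 0.0789) and by 1.40 ± 0.63 in female input RNA (adjusted p = 0.239).

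The other 4 secreted members were less abundant. Lbp encodes the binding protein for lipopolysaccharide. Its footprints were 30.8, 35.3 and 16.3 CPM in knockout females, against 5.08, 8.95 and 27.5 CPM in wild-type females, with 45.1 and 34.1 CPM in knockout males, against 44.96 and 53.1 CPM in wild-type males. In input RNA Lbp had 8.52, 6.44 and 4.84 CPM in knockout females, against 2.05, 2.98 and 5.76 CPM in wild-type females, with 10.8 and 6.09 CPM in knockout males, against 10.3 and 9.63 CPM in wild-type males. Wfdc2 encodes a secreted protein of the whey acidic protein family. Its footprints were 6.91, 4.38 and 1.91 CPM in knockout females, against 1.08, 0 and 3.69 CPM in wild-type females, with 10.1 and 5.11 CPM in knockout males, against 8.73 and 11.2 CPM in wild-type males, where 3 counts in wild-type female 2 would be 0.527 CPM. In input RNA Wfdc2 had 2.6, 3.22 and 1.19 CPM in knockout females, against 0.38, 0.414 and 2.22 CPM in wild-type females, with 5.53 and 2.07 CPM in knockout males, against 3.6 and 4.95 CPM in wild-type males. Lbp and Wfdc2 were lowest in wild-type females 1 and 2 in both assays, and their groups overlapped in both sexes. Sostdc1 encodes a secreted antagonist of BMP and Wnt signals. Its footprints were 14.3, 9.79 and 4.27 CPM in knockout females, against 1.38, 1.05 and 12.5 CPM in wild-type females, with 13.6 and 14.02 CPM in knockout males, against 15.9 and 13.4 CPM in wild-type males. In input RNA Sostdc1 had 7.71, 8.38 and 3.17 CPM in knockout females, against 0.913, 1.08 and 6.09 CPM in wild-type females, with 7.72 and 8.59 CPM in knockout males, against 7.19 and 13.1 CPM in wild-type males. Its pattern was again a pair of low wild-type females with overlap elsewhere. Igf2 encodes an insulin-like growth factor that the plexus and the leptomeninges release. Its footprints were 0.121, 0.773 and 0.562 CPM in knockout females, against 0.154, 0.176 and 0.283 CPM in wild-type females, with 0.385 and 0.33 CPM in knockout males, against 1.48 and 2.39 CPM in wild-type males. In input RNA Igf2 had 0.162, 0 and 0.0794 CPM in knockout females, against 0.152, 0.0828 and 0 CPM in wild-type females, with 0.0953 and 0.109 CPM in knockout males, against 0.351 and 0.183 CPM in wild-type males, at counts of 0 in 2 libraries, where 3 counts would be 0.225 and 0.247 CPM. Igf2 was the member with the fewest input counts, did not pass the filter there, and lay lower in both knockout males than in both wild-type males, with no call.

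Among genes of ion, water and acid-base transport, 2 of 8 members rose in female footprints, beside 2.81% of all genes called higher. In female input RNA 1 of 8 rose, beside 0.748%. The median log2 fold change was 1.23 (0.32 to 1.97) in footprints. Kcnj13 encodes Kir7.1, an inward rectifier of the apical membrane. Its footprints stood at 136, 99.9 and 41.3 CPM in knockout females, against 7.69, 10.4 and 51.4 CPM in wild-type females, with 106 and 69.6 CPM in knockout males, against 78.1 and 82.95 CPM in wild-type males. Its input RNA stood at 29.6, 23.3 and 10.9 CPM in knockout females, against 3.42, 2.73 and 18.1 CPM in wild-type females, with 35.2 and 21.1 CPM in knockout males, against 21.9 and 31.2 CPM in wild-type males. The female groups overlapped, since wild-type female 3 lay above knockout female 3, and the male groups overlapped too. Kcnj13 rose by 1.97 ± 0.54 in female footprints (edgeR adjusted p = 0.0436), while the female input difference of 1.40 ± 0.55 was not called (adjusted p = 0.179). The footprint call was lost when any of 6 animals was left out (knockout females 1 and 2, wild-type females 1 and 2, knockout males 1 and 2) and with DESeq2 (adjusted p = 0.0843), and without wild-type females 1 and 2 together the value was 0.86 (adjusted p = 0.433). Kcnj13 lies within Gigyf2 on the opposite strand, and the strand rule of the counting is unknown here.

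Car12 encodes a carbonic anhydrase of the cell surface. Its footprints were 61.1, 48.1 and 29.8 CPM in knockout females, against 19.5, 22.3 and 34.4 CPM in wild-type females, with 49.6 and 45.2 CPM in knockout males, against 44.5 and 43.4 CPM in wild-type males. The input level of Car12 was 22.9, 15.8 and 12.5 CPM in knockout females, against 8.37, 12.8 and 13.7 CPM in wild-type females, with 19.4 and 12.2 CPM in knockout males, against 13.7 and 13.3 CPM in wild-type males. The lowest footprints were those of wild-type females 1 and 2, the female groups overlapped through wild-type female 3, and both knockout males lay above both wild-type males in footprints by a small margin. Car12 rose by 0.86 ± 0.24 in female footprints (edgeR adjusted p = 0.0459) and differed by 0.56 ± 0.24 in female input RNA without a call (adjusted p = 0.221). The footprint call was lost without any of the same 6 animals, and without wild-type females 1 and 2 together the value was 0.44 (adjusted p = 0.536), while DESeq2 kept it (adjusted p = 0.0047).

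Trpm3 encodes a cation channel that many neurons carry as well. Its footprints were 152, 136 and 123 CPM in knockout females, against 102, 131 and 97.4 CPM in wild-type females, with 112 and 114 CPM in knockout males, against 96.98 and 116 CPM in wild-type males. For Trpm3, input RNA was 246, 234 and 190.1 CPM in knockout females, against 128, 160.4 and 171 CPM in wild-type females, with 237 and 217 CPM in knockout males, against 208 and 255 CPM in wild-type males. All 3 knockout females lay above all 3 wild-type females in input RNA, the females overlapped in footprints and the males in both assays. Trpm3 input RNA rose by 0.54 ± 0.12 in females (edgeR adjusted p = 0.034), and the footprint difference of 0.32 ± 0.13 was not called (adjusted p = 0.138). The input call was lost without any of 5 animals (knockout females 1 and 2, wild-type female 1, knockout males 1 and 2), and without wild-type females 1 and 2 together the value was 0.38 (adjusted p = 0.210). Clic6 encodes a protein of the chloride intracellular channel family. Its footprints were 50.2, 50.8 and 19.7 CPM in knockout females, against 6.62, 5.09 and 41.95 CPM in wild-type females, with 68.3 and 43.4 CPM in knockout males, against 47.9 and 66.03 CPM in wild-type males. Clic6 input RNA was 44.4, 43.9 and 12.3 CPM in knockout females, against 5.93, 3.89 and 24.7 CPM in wild-type females, with 47.5 and 30.2 CPM in knockout males, against 39.5 and 43.1 CPM in wild-type males. Wild-type females 1 and 2 stood far below the rest, and all groups overlapped. Clic6 differed by 1.13 ± 0.56 in female footprints (edgeR adjusted p = 0.222) and by 1.55 ± 0.56 in female input RNA (adjusted p = 0.146).

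Kcne2 encodes an accessory subunit of potassium channels. Its footprints were 14.1, 10.4 and 4.84 CPM in knockout females, against 0.308, 0.527 and 10.2 CPM in wild-type females, with 15.5 and 14.02 CPM in knockout males, against 12.6 and 14.3 CPM in wild-type males. In input RNA Kcne2 had 6.17, 4.27 and 1.19 CPM in knockout females, against 0.0761, 0.331 and 4.61 CPM in wild-type females, with 6.38 and 4.24 CPM in knockout males, against 5.53 and 5.96 CPM in wild-type males. Aqp1 encodes the main water channel of the plexus. Its footprints were 41.1, 33.9 and 9.56 CPM in knockout females, against 1.23, 1.76 and 21.8 CPM in wild-type females, with 57.5 and 39.6 CPM in knockout males, against 32.2 and 52.6 CPM in wild-type males. In input RNA Aqp1 had 9.58, 9.96 and 2.86 CPM in knockout females, against 0.0761, 0.746 and 5.59 CPM in wild-type females, with 13.8 and 7.72 CPM in knockout males, against 13.3 and 10.7 CPM in wild-type males. For both genes wild-type females 1 and 2 held a small part of the level of any other library, and the groups overlapped. Car14 encodes another membrane-bound carbonic anhydrase. Its footprints were 33.3, 34.3 and 24.2 CPM in knockout females, against 12.9, 14.4 and 24.7 CPM in wild-type females, with 41.8 and 30.01 CPM in knockout males, against 31.2 and 47.5 CPM in wild-type males. In input RNA Car14 had 9.42, 11.2 and 8.57 CPM in knockout females, against 4.95, 5.63 and 8.88 CPM in wild-type females, with 10.8 and 7.39 CPM in knockout males, against 10.7 and 12.6 CPM in wild-type males. Its gap between wild-type females 1 and 2 and the rest was narrower, and its groups overlapped through wild-type female 3. The main edgeR fit did not call Car14 in female footprints. DESeq2 did (0.82, adjusted p = 0.013), and so did edgeR with female libraries alone (0.81, adjusted p = 0.0366). Slc4a5, a sodium bicarbonate cotransporter, ranged over the 10 libraries from 0.308 to 24.2 CPM in footprints and from 0.609 to 29.4 CPM in input RNA, lowest in wild-type female 1 and highest in knockout male 1 in both assays.

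**Figure D3:**
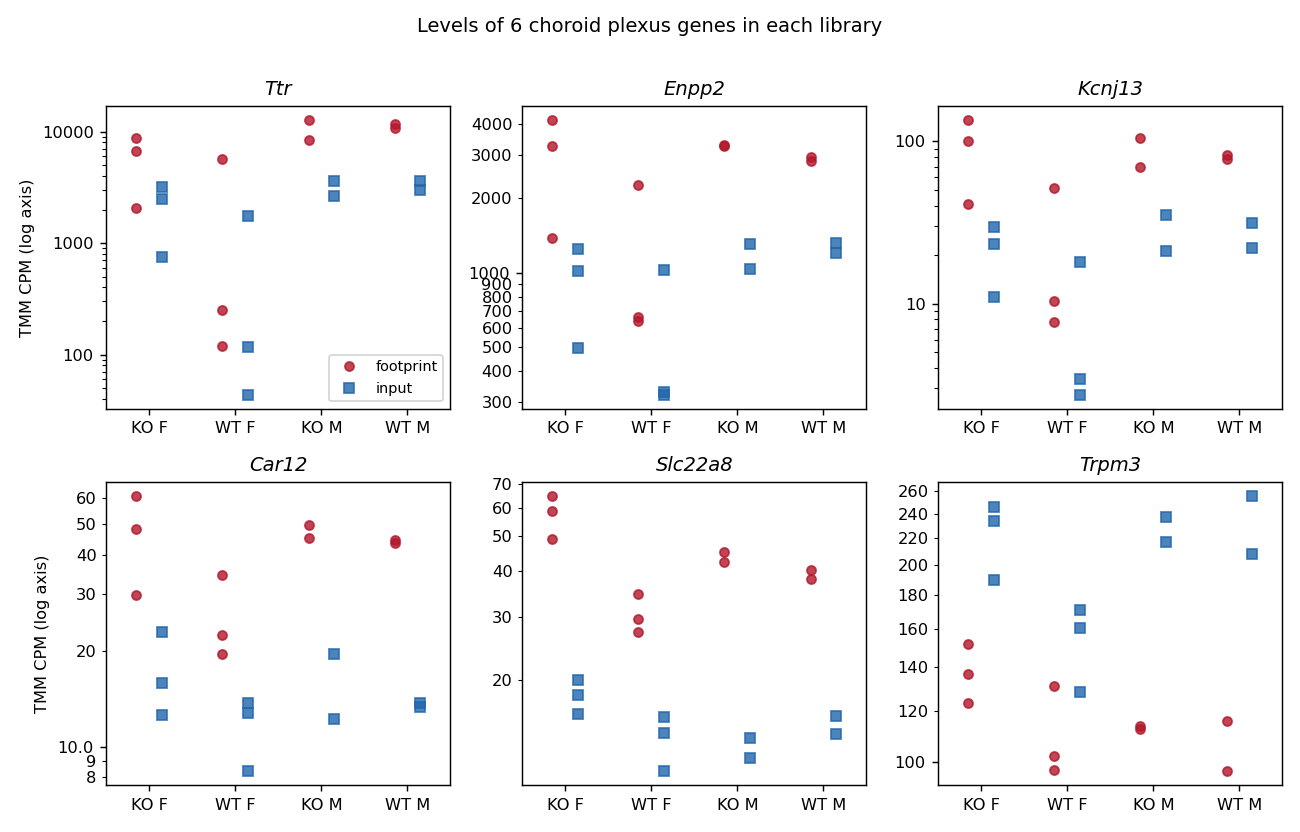
Footprint level (circles) and input level (squares) of 6 members in every library, in CPM on a log axis, with knockout libraries left of wild-type libraries in females and in males, each point being 1 library. In footprints Slc22a8 is the member among the 6 in which all 3 knockout females (49.1 to 64.7 CPM) lie above all 3 wild-type females (27.2 to 34.6 CPM), while Ttr footprints are highest in knockout male 1 at 12800 CPM and lowest in wild-type female 1 at 119 CPM.

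Among receptors, nutrient uptake and retinoid handling, 1 of 7 members rose in female footprints, beside 2.81% of all genes called higher. In female input RNA 0 of 7 rose, beside 0.748% (DESeq2 also 0, and an unadjusted p under 0.05 for 6). The median log2 fold change was 1.48 (0.90 to 2.06) in footprints. Slc22a8 encodes OAT3, which removes organic anions from the cerebrospinal fluid. Its footprints stood at 64.7, 49.1 and 58.8 CPM in knockout females, against 34.6, 29.5 and 27.2 CPM in wild-type females, with 42.4 and 45.2 CPM in knockout males, against 40.3 and 38.1 CPM in wild-type males. Its input RNA stood at 20.1, 16.1 and 18.2 CPM in knockout females, against 15.8, 14.2 and 11.2 CPM in wild-type females, with 13.8 and 12.2 CPM in knockout males, against 15.9 and 14.2 CPM in wild-type males. All 3 knockout females lay above all 3 wild-type females in both assays, both knockout males lay above both wild-type males in footprints, and in input RNA the knockout males lay below. Slc22a8 rose by 0.92 ± 0.13 in female footprints (edgeR adjusted p = 0.00716) and kept its call without any single animal, at values from 0.83 to 1.02. Unlike most members, Slc22a8 did not follow the rest over the animals. Its Pearson correlation with the mean of the other members was 0.42 in footprints and −0.03 in input RNA. Its lowest footprint library was wild-type female 3, at 27.2 CPM. Its female input difference of 0.39 ± 0.14 (adjusted p = 0.136), its male footprint difference of 0.16 ± 0.16 (adjusted p = 0.963) and its male input difference of −0.21 ± 0.18 (adjusted p = 0.76) were not called. The female minus male difference was 0.76 ± 0.21 in footprints (edgeR adjusted p = 0.348), so no difference between the sexes passed. Slc22a8 was the 1 member whose female footprint groups did not overlap, where 17.1% of all genes had every knockout female above every wild-type female.

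Kl encodes klotho, a co-receptor for fibroblast growth factors that is also shed into the fluid. Its footprints were 229, 195 and 71.3 CPM in knockout females, against 12.5, 23.2 and 123 CPM in wild-type females, with 164 and 151 CPM in knockout males, against 158 and 160 CPM in wild-type males. Input RNA of Kl came to 104, 87.7 and 43.3 CPM in knockout females, against 11.6, 21.9 and 59.6 CPM in wild-type females, with 94.05 and 66.3 CPM in knockout males, against 92.4 and 88.6 CPM in wild-type males. Knockout females 1 and 2 were the highest libraries in footprints, wild-type females 1 and 2 the lowest, and the groups overlapped in both sexes. Kl differed by 1.62 ± 0.58 in female footprints (edgeR adjusted p = 0.101) and by 1.34 ± 0.44 in female input RNA (adjusted p = 0.118). Folr1 encodes the folate receptor that moves folate into the fluid. Its footprints were 45.6, 39.3 and 17.5 CPM in knockout females, against 1.08, 4.57 and 29.8 CPM in wild-type females, with 65.2 and 45.2 CPM in knockout males, against 55.8 and 70.8 CPM in wild-type males. The input level of Folr1 was 25.2, 16.5 and 5.95 CPM in knockout females, against 0.837, 1.08 and 11.4 CPM in wild-type females, with 25.6 and 15 CPM in knockout males, against 17.9 and 21.9 CPM in wild-type males. The lowest libraries were again wild-type females 1 and 2, and the groups overlapped. Folr1 differed by 1.48 ± 0.62 in female footprints (edgeR adjusted p = 0.155) and by 1.85 ± 0.70 in female input RNA (adjusted p = 0.161).

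Rdh5 encodes a retinol dehydrogenase. Its footprints were 16.97, 12.4 and 5.51 CPM in knockout females, against 2.31, 3.34 and 12.5 CPM in wild-type females, with 34.99 and 17.1 CPM in knockout males, against 14.6 and 23.7 CPM in wild-type males. In input RNA Rdh5 had 6.66, 6.51 and 2.94 CPM in knockout females, against 0.533, 0.663 and 3.29 CPM in wild-type females, with 9.05 and 3.37 CPM in knockout males, against 7.28 and 5.69 CPM in wild-type males. Steap1 encodes a membrane protein of the metalloreductase family. Its footprints were 30.6, 20.4 and 5.17 CPM in knockout females, against 1.08, 1.41 and 10.3 CPM in wild-type females, with 20.9 and 12.04 CPM in knockout males, against 19.7 and 15.4 CPM in wild-type males. In input RNA Steap1 had 6.01, 5.54 and 0.714 CPM in knockout females, against 0.38, 0.58 and 3.54 CPM in wild-type females, with 6.86 and 4.78 CPM in knockout males, against 6.14 and 5.23 CPM in wild-type males. Both genes were lowest in wild-type females 1 and 2 and overlapped between genotypes in both sexes. Prlr, the prolactin receptor gene, was added after its values were seen. Its footprints were 48.7, 32.1 and 8.66 CPM in knockout females, against 2.46, 2.98 and 19.7 CPM in wild-type females, with 17.7 and 12.9 CPM in knockout males, against 19 and 18.6 CPM in wild-type males. In input RNA Prlr had 27.03, 16.8 and 8.1 CPM in knockout females, against 1.45, 2.32 and 14.6 CPM in wild-type females, with 12.96 and 9.13 CPM in knockout males, against 16.8 and 17.97 CPM in wild-type males. Both knockout males lay below both wild-type males in both assays, and the females overlapped. Abca4, a lipid transporter best known from photoreceptors, ranged from 2.81 to 33.2 CPM in footprints and from 3.65 to 29.8 CPM in input RNA, highest in knockout female 1 in both assays.

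Among junction, matrix and filament proteins, edgeR and DESeq2 called 0 of 4 members in either female comparison (an unadjusted p under 0.05 for 1 in footprints and 2 in input RNA), with a median log2 fold change of 0.86 (0.16 to 1.94) in footprints. Cldn2 encodes a claudin that forms cation-permeable pores in tight junctions. Its footprints were 16.7, 13.4 and 5.06 CPM in knockout females, against 0.154, 0.702 and 7.79 CPM in wild-type females, with 13.8 and 10.9 CPM in knockout males, against 15.1 and 11.2 CPM in wild-type males. In input RNA Cldn2 had 6.41, 5.17 and 2.06 CPM in knockout females, against 0.152, 0.746 and 3.54 CPM in wild-type females, with 6.76 and 3.81 CPM in knockout males, against 5.09 and 7.15 CPM in wild-type males. It had the widest footprint spread of the members with a count in every library, with wild-type female 1 at 1 count. Col8a1 encodes a chain of collagen VIII. Its footprints were 11.2, 7.73 and 3.04 CPM in knockout females, against 2.77, 2.81 and 7.23 CPM in wild-type females, with 9.23 and 8.57 CPM in knockout males, against 10.8 and 12.1 CPM in wild-type males. For Col8a1, input RNA was 17.1, 12.6 and 6.27 CPM in knockout females, against 3.12, 4.8 and 11.5 CPM in wild-type females, with 10.2 and 10.2 CPM in knockout males, against 9.38 and 12.7 CPM in wild-type males. Females overlapped, and knockout males lay below wild-type males in footprints. Col8a1 differed by 0.74 ± 0.42 in female footprints (edgeR adjusted p = 0.287) and by 0.89 ± 0.41 in female input RNA (adjusted p = 0.249).

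Sulf1 encodes an extracellular sulfatase that trims heparan sulfate. Its footprints were 42.8, 44.3 and 27.9 CPM in knockout females, against 34, 25.3 and 43.1 CPM in wild-type females, with 31.1 and 33.6 CPM in knockout males, against 41.5 and 43.6 CPM in wild-type males. Sulf1 input RNA was 34.9, 37.4 and 25.5 CPM in knockout females, against 21.3, 21.8 and 34.96 CPM in wild-type females, with 34.3 and 22.3 CPM in knockout males, against 33.9 and 40.8 CPM in wild-type males. All female libraries lay within a narrow range and overlapped, and knockout males lay below wild-type males in footprints. Sulf1 differed by 0.16 ± 0.19 in female footprints (edgeR adjusted p = 0.645) and by 0.33 ± 0.21 in female input RNA (adjusted p = 0.42). Krt18 encodes a keratin of simple epithelia. Its footprints were 13.3, 9.92 and 4.16 CPM in knockout females, against 1.08, 1.93 and 10.2 CPM in wild-type females, with 21.8 and 12.04 CPM in knockout males, against 11.1 and 18.2 CPM in wild-type males. Input RNA of Krt18 came to 8.12, 8.61 and 1.91 CPM in knockout females, against 0.609, 1.66 and 4.69 CPM in wild-type females, with 8.67 and 4.02 CPM in knockout males, against 5.35 and 6.6 CPM in wild-type males. Wild-type females 1 and 2 were the lowest libraries, with overlap in both sexes. Krt18 differed by 0.99 ± 0.59 in female footprints (edgeR adjusted p = 0.304) and by 1.44 ± 0.61 in female input RNA (adjusted p = 0.212).

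The 3 transcription factors are homeodomain proteins, and edgeR called 0 of 3 in either female comparison (an unadjusted p under 0.05 for 1 in footprints and 2 in input RNA), with a median log2 fold change of 0.83 (0.60 to 1.30) in footprints. Otx2 is needed for the plexus to form and is itself released by it. Its footprints were 10.7, 8.76 and 3.94 CPM in knockout females, against 1.54, 0.351 and 7.09 CPM in wild-type females, with 16.02 and 10.4 CPM in knockout males, against 11.6 and 15.8 CPM in wild-type males. The input level of Otx2 was 7.31, 5.24 and 1.99 CPM in knockout females, against 0.533, 0.663 and 4.11 CPM in wild-type females, with 7.62 and 5.65 CPM in knockout males, against 5.44 and 8.35 CPM in wild-type males. Wild-type females 1 and 2 were lowest in both assays, and the groups overlapped. Otx2 differed by 1.30 ± 0.57 in female footprints (edgeR adjusted p = 0.17) and by 1.46 ± 0.61 in female input RNA (adjusted p = 0.206). Msx1 is expressed along the dorsal midline from which the plexus arises. Its footprints were 8.61, 4.77 and 5.62 CPM in knockout females, against 1.38, 4.39 and 6.66 CPM in wild-type females, with 13.5 and 9.23 CPM in knockout males, against 11.1 and 17.1 CPM in wild-type males. For Msx1, input RNA was 6.25, 6.59 and 4.05 CPM in knockout females, against 2.13, 1.82 and 4.11 CPM in wild-type females, with 5.53 and 6.31 CPM in knockout males, against 7.02 and 7.52 CPM in wild-type males. Females overlapped in both assays, and knockout males lay below wild-type males in input RNA. Msx1 differed by 0.60 ± 0.40 in female footprints (edgeR adjusted p = 0.37) and by 1.07 ± 0.28 in female input RNA (adjusted p = 0.0606), which DESeq2 called (adjusted p = 0.0199).

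Lmx1a marks the embryonic roof plate and the plexus epithelium. Its footprints were 1.58, 0.387 and 0.562 CPM in knockout females, against 0, 0.527 and 0.85 CPM in wild-type females, with 1.67 and 0.495 CPM in knockout males, against 2.09 and 0.736 CPM in wild-type males, where 3 counts in wild-type female 1 would be 0.461 CPM. Lmx1a input RNA was 1.38, 0.524 and 0.318 CPM in knockout females, against 0.152, 0.166 and 1.07 CPM in wild-type females, with 1.43 and 0.326 CPM in knockout males, against 1.32 and 0.55 CPM in wild-type males. Most libraries held few counts, and the groups overlapped in both sexes. Lmx1a differed by 0.83 ± 0.85 in female footprints (edgeR adjusted p = 0.578) and by 0.67 ± 0.83 in female input RNA (adjusted p = 0.709).

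Of the 4 other epithelial genes, edgeR and DESeq2 called 0 in either female comparison (an unadjusted p under 0.05 for 3 in footprints and 2 in input RNA), with a median log2 fold change of 1.21 (0.46 to 1.92) in footprints. Calml4 encodes a calmodulin-like protein. Its footprints were 8.12, 9.15 and 4.39 CPM in knockout females, against 0.615, 0.878 and 5.24 CPM in wild-type females, with 11.7 and 4.62 CPM in knockout males, against 10.9 and 11.2 CPM in wild-type males. Input RNA of Calml4 came to 6.01, 8.38 and 3.25 CPM in knockout females, against 0.304, 1.16 and 5.02 CPM in wild-type females, with 9.91 and 5.33 CPM in knockout males, against 9.65 and 12.5 CPM in wild-type males. Wild-type females 1 and 2 stood apart at the low end, and the groups overlapped. Calml4 differed by 1.61 ± 0.55 in female footprints (edgeR adjusted p = 0.0878) and by 1.46 ± 0.60 in female input RNA (adjusted p = 0.2). Cab39l encodes a scaffold protein of the kinase Stk11. Its footprints were 46.4, 48.3 and 24.7 CPM in knockout females, against 17.5, 15.8 and 34.3 CPM in wild-type females, with 43.2 and 41.4 CPM in knockout males, against 38.4 and 37.9 CPM in wild-type males. The input level of Cab39l was 55.2, 52.3 and 43.3 CPM in knockout females, against 46.03, 39.02 and 56.1 CPM in wild-type females, with 67.8 and 60.8 CPM in knockout males, against 59.8 and 62.5 CPM in wild-type males. Input RNA varied little between libraries, footprints were lowest in wild-type females 1 and 2, and both knockout males lay just above both wild-type males in footprints. Cab39l differed by 0.81 ± 0.27 in female footprints (edgeR adjusted p = 0.085) and by 0.10 ± 0.12 in female input RNA (adjusted p = 0.725).

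Tmem72 encodes a transmembrane protein. Its footprints were 8.85, 7.22 and 2.7 CPM in knockout females, against 0.154, 0.527 and 3.97 CPM in wild-type females, with 8.33 and 6.27 CPM in knockout males, against 5.84 and 12.5 CPM in wild-type males. For Tmem72, input RNA was 7.39, 6.21 and 1.43 CPM in knockout females, against 0, 0.0828 and 2.06 CPM in wild-type females, with 9.34 and 5.00 CPM in knockout males, against 6.67 and 8.53 CPM in wild-type males, with 0 counts in wild-type female 1, where 3 counts would be 0.228 CPM. Wild-type females 1 and 2 held almost none of it, and the groups overlapped in both sexes. Tmem72 differed by 1.92 ± 0.66 in female footprints (edgeR adjusted p = 0.0881) and by 2.82 ± 0.81 in female input RNA (adjusted p = 0.0798). Cox8b encodes a subunit of cytochrome oxidase. Its footprints were 0.97, 1.03 and 0.787 CPM in knockout females, against 0, 0.351 and 1.56 CPM in wild-type females, with 2.95 and 0.659 CPM in knockout males, against 1.66 and 2.58 CPM in wild-type males, where 3 counts in wild-type female 1 would be 0.461 CPM. In input RNA Cox8b had 4.3, 3.52 and 1.59 CPM in knockout females, against 0.38, 0.0828 and 4.11 CPM in wild-type females, with 7.72 and 2.72 CPM in knockout males, against 3.07 and 5.87 CPM in wild-type males. Footprints of Cox8b were few in every library, the genotypes overlapped, and wild-type females 1 and 2 were lowest in both assays.

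Taking both sexes together, 0 members were called in footprints, beside 0.00761% of all genes, and 0 in input RNA, beside 0.734% (0.0918% higher and 0.642% lower). An unadjusted p under 0.05 was held by 5 of 33 members in footprints, beside 2576 of 13143 genes. In input RNA it was held by 3 of 32 members, beside 2497 of 14164 genes. DESeq2 called 1 member in footprints, Slc22a8, and 0 in input RNA. Slc22a8 came closest in footprints, at 0.54 ± 0.10 (edgeR adjusted p = 0.0567). The medians were 0.63 in footprints and 0.56 in input RNA, with 31 members above 0 in each. The test of the difference between the sexes called 0 members and 0% of genes in both assays, and DESeq2 also called 0 members. An unadjusted p under 0.05 was held by 9 members in footprints, beside 1109 of 13143 genes. In input RNA it was held by 10 members, beside 1339 of 14164 genes. The median female minus male difference was 1.31 in footprints and 1.35 in input RNA. Sex, age and the wild-type females with low levels of these genes cannot be told apart in that comparison.

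The groups did not overlap for few members. In male footprints 4 members lay higher in both knockout males (Enpp2, Car12, Slc22a8 and Cab39l), where 13.2% of all genes did, and 4 lay lower (Igf2, Prlr, Col8a1 and Sulf1), where 13.7% did. In female input RNA 2 of 32 lay higher (Trpm3 and Slc22a8), where 11.8% of all genes did, and none lay lower, where 13.4% did. In male input RNA 3 of 32 lay lower (Prlr, Slc22a8 and Msx1), where 18.5% of all genes did, and none lay higher, where 19.3% did. The female footprints had no member lower in every knockout library, where 17.8% of all genes were.

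Choroid plexus mRNAs carried many footprints for their input RNA. Over all animals the footprint level exceeded the input level, relative to all genes, for 22 of 33 members and fell short of it for 3, so that 75.8% of members were called beside 82.6% of 14146 genes, 66.7% higher beside 40.7% and 9.09% lower beside 41.9%. The median log2 difference between footprint and input over all 33 members was 1.16, with 29 above 0. Among secreted proteins the difference was 1.87 ± 0.63 for Ttr (edgeR adjusted p = 0.00988), 1.58 ± 0.27 for Enpp2 (adjusted p = 2.28e-05), 2.35 ± 0.24 for Lbp (adjusted p = 1.41e-08) and 2.23 ± 0.49 for Igf2 (adjusted p = 0.000353). It was 1.16 ± 0.37 for F5 (edgeR adjusted p = 0.00742), 1.18 ± 0.35 for Wfdc2 (adjusted p = 0.00468) and 0.92 ± 0.35 for Sostdc1 (adjusted p = 0.0192), so all 7 secreted members passed. Igf2, which is among the 22, held 0 to 4 input counts per library and had its most footprints in wild-type males (24 and 13 counts). It passed the filter of this model through those footprint libraries, so its call carries no weight. DESeq2 did not call Sostdc1 (adjusted p = 0.0713).

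Among channels and carbonic anhydrases the difference between footprint and input was 1.94 ± 0.33 for Kcnj13 (edgeR adjusted p = 2.04e-05), 1.53 ± 0.43 for Kcne2 (adjusted p = 0.00266) and 2.19 ± 0.41 for Aqp1 (adjusted p = 6.49e-05). It was 1.68 ± 0.15 for Car12 (edgeR adjusted p = 1.6e-09) and 1.91 ± 0.14 for Car14 (adjusted p = 7.48e-11). Among receptors and carriers of nutrients it was 1.70 ± 0.08 for Slc22a8 (edgeR adjusted p = 3.56e-14), 1.63 ± 0.39 for Folr1 (adjusted p = 0.000747), 1.13 ± 0.33 for Kl (adjusted p = 0.00359), 1.90 ± 0.31 for Rdh5 (adjusted p = 1.35e-05) and 1.94 ± 0.40 for Steap1 (adjusted p = 0.000166). Among structural proteins it was 1.41 ± 0.38 for Cldn2 (edgeR adjusted p = 0.00207), 1.26 ± 0.35 for Krt18 (adjusted p = 0.00265) and 0.47 ± 0.12 for Sulf1 (adjusted p = 0.00181). Among transcription factors it was 1.08 ± 0.34 for Otx2 (edgeR adjusted p = 0.00594) and 0.88 ± 0.20 for Msx1 (adjusted p = 0.000344).

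The 3 members with fewer footprints than input RNA were Trpm3 at −0.62 ± 0.07 (edgeR adjusted p = 1.57e-07), Cab39l at −0.45 ± 0.13 (adjusted p = 0.00269) and Cox8b at −1.17 ± 0.47 (adjusted p = 0.0272). DESeq2 did not call Cox8b (adjusted p = 0.063). The remaining 8 members (Clic6, Slc4a5, Prlr, Abca4, Col8a1, Lmx1a, Calml4 and Tmem72) had differences from −0.14 for Col8a1 to 0.69 for Clic6 and were not called. With the animal as a block in the fit, since footprint and input come from the same lysate, 30 of 33 members were called, beside 85.6% of all genes.

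The ratio was also taken in single animals, where its spread differed between members. On the log2 scale, with 0.5 CPM added to both levels, the ratio of Ttr was 1.45, 1.44 and 1.44 in knockout females, against 1.44, 1.11 and 1.70 in wild-type females, with 1.82 and 1.67 in knockout males, against 1.86 and 1.68 in wild-type males, and so above 0 in every animal with overlapping genotypes. The mean over 10 animals was 1.56 for Ttr, 1.94 for Lbp, 1.75 for Aqp1, 1.69 for Kcnj13 and 1.60 for Car14, and at the low end it was −0.97 for Cox8b, −0.78 for Trpm3 and −0.70 for Cab39l. These ratios are scaled within each assay and are therefore not on the scale of the fitted differences, and the order differs too. Igf2, whose fitted difference was 2.23, had a mean ratio of 0.73, with single animals from −0.09 to 2.08. The ratio was above 0 in all 10 animals for 17 of 33 members, against 26.0% of 12787 genes with at least 1 CPM in both assays, and below 0 in all 10 for 2 (Trpm3 and Cab39l), against 41.3%. The median ratio was 0.73 over the members and −0.19 over those genes, of which 2.63% reached the ratio of Ttr.

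**Figure D4:**
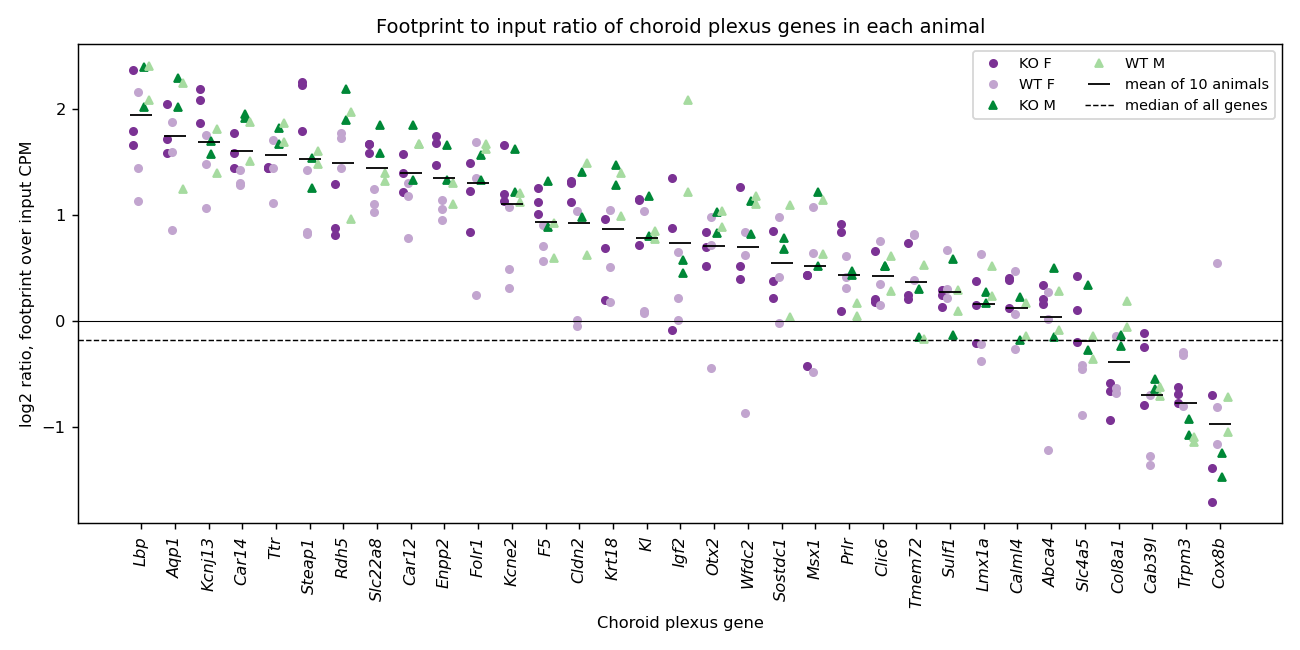
Log2 ratio of footprint to input CPM of the 33 members in each of the 10 animals, with dark points for knockout and pale points for wild-type animals, circles for females and triangles for males, ordered by the mean (short bar), and a broken line at the median of all genes. Lbp has the highest mean (1.94) and Cox8b the lowest (−0.97), and the points of both genotypes mix for most members.

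No genotype difference in the footprint level relative to input passed for a member in the fit without pairing. Translational efficiency, the footprint difference minus the input difference, had 0 calls among 33 members in females (0.0424% of 14146 genes), in males (0%) and in both sexes (0%), and DESeq2 called 0 in each. An unadjusted p under 0.05 was held by 2, 0 and 1 members, beside 1787, 367 and 1458 of 14146 genes. The median was 0.16 in females (19 of 33 above 0), 0.09 in males (23 of 33) and 0.10 in both sexes (18 of 33). With the animal as a block, 3 members were higher in knockout females, beside 1.34% of all genes called higher and 2.79% in either direction. These were Enpp2 at 0.60 ± 0.095 (edgeR adjusted p = 0.00302), Slc22a8 at 0.53 ± 0.14 (adjusted p = 0.0440) and Cab39l at 0.74 ± 0.18 (adjusted p = 0.0267). Without the block their values were 0.60 ± 0.67 (edgeR adjusted p = 0.775), 0.54 ± 0.19 (adjusted p = 0.247) and 0.72 ± 0.33 (adjusted p = 0.362). For both sexes with the block 1 member, Enpp2, was called at 0.45 ± 0.075 (edgeR adjusted p = 0.0109), beside 0.806% of all genes, and in males, where 0 members (3 at an unadjusted p under 0.05) and 0.00707% of genes were called, Enpp2 stood at 0.30 ± 0.12 (adjusted p = 0.946).

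The log2 ratio of Enpp2 footprints to input was 1.74, 1.68 and 1.47 in knockout females, against 0.95, 1.05 and 1.14 in wild-type females, with 1.32 and 1.66 in knockout males, against 1.30 and 1.10 in wild-type males. All knockout animals lay above all wild-type animals of their sex. Slc22a8 had a ratio of 1.67, 1.58 and 1.67 in knockout females, against 1.10, 1.02 and 1.25 in wild-type females, with 1.58 and 1.85 in knockout males, against 1.32 and 1.39 in wild-type males. Its knockout males lay above its wild-type males, and so did its knockout females above its wild-type females. For Enpp2 and Slc22a8 the share of all genes with ratios apart in this way was not taken. In a single assay, 11.8% to 19.3% of all genes had genotypes apart in a given sex and direction. That is another measure, taken in each sex alone, and does not stand in for the missing share. Cab39l had a ratio of −0.25, −0.11 and −0.80 in knockout females, against −1.37, −1.28 and −0.70 in wild-type females, with −0.64 and −0.55 in knockout males, against −0.63 and −0.72 in wild-type males. Its genotypes overlapped in both sexes, with wild-type females 1 and 2 at the low end. When wild-type females 1 and 2 were left out of the fit with the block, 0 members were called, with Enpp2 at 0.52 (edgeR adjusted p = 0.376), Slc22a8 at 0.41 (adjusted p = 0.603) and Cab39l at 0.36 (adjusted p = 0.645). Ttr itself stood at 0.02 ± 0.10 in females with the block (edgeR adjusted p = 0.942).

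Levels can be compared between members only per length. Per kilobase of coding sequence the mean footprint level was 15140 CPM for Ttr, 901 for Enpp2, 63.1 for Kcnj13, 48.8 for Folr1 and 42.3 for Kl. The lowest were Abca4 at 2.77, Igf2 at 1.16 and Lmx1a at 0.774 CPM per kilobase. Within every library Ttr ranked first and Enpp2 second, at 13, 12.7 and 9.15 times the level of Enpp2 per kilobase in knockout females, against 1.15, 2.35 and 15.5 times in wild-type females. In males Ttr stood at 24.1 and 15.8 times Enpp2 in knockout animals, against 22.7 and 25.4 times in wild-type animals. The lead of Ttr was thus narrowest in wild-type females 1 and 2, and the places after the second changed between libraries, from 3 to 9 for Kcnj13, from 3 to 19 for Folr1 and from 4 to 10 for Kl.

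Ttr had enough footprints to follow single codons. Its footprints per library on listed codons ran from 688 in wild-type female 1 to 153203 in wild-type male 1, and 59.4% to 94.0% of its codons were covered, per the deposited occupancy tables. Codon 119 took 9.67% to 20.3% of them, codon 26 took 8.18% to 25.9% and codon 59 took 2.18% to 11.2%, with the top 5 codons of each library holding 32.2% to 63.8%. The profile was alike between libraries, with a Pearson correlation over 126 codons of 0.732 to 0.990 and a median of 0.917, a description over codons of 1 gene that share their libraries' chemistry.

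**Figure D5:**
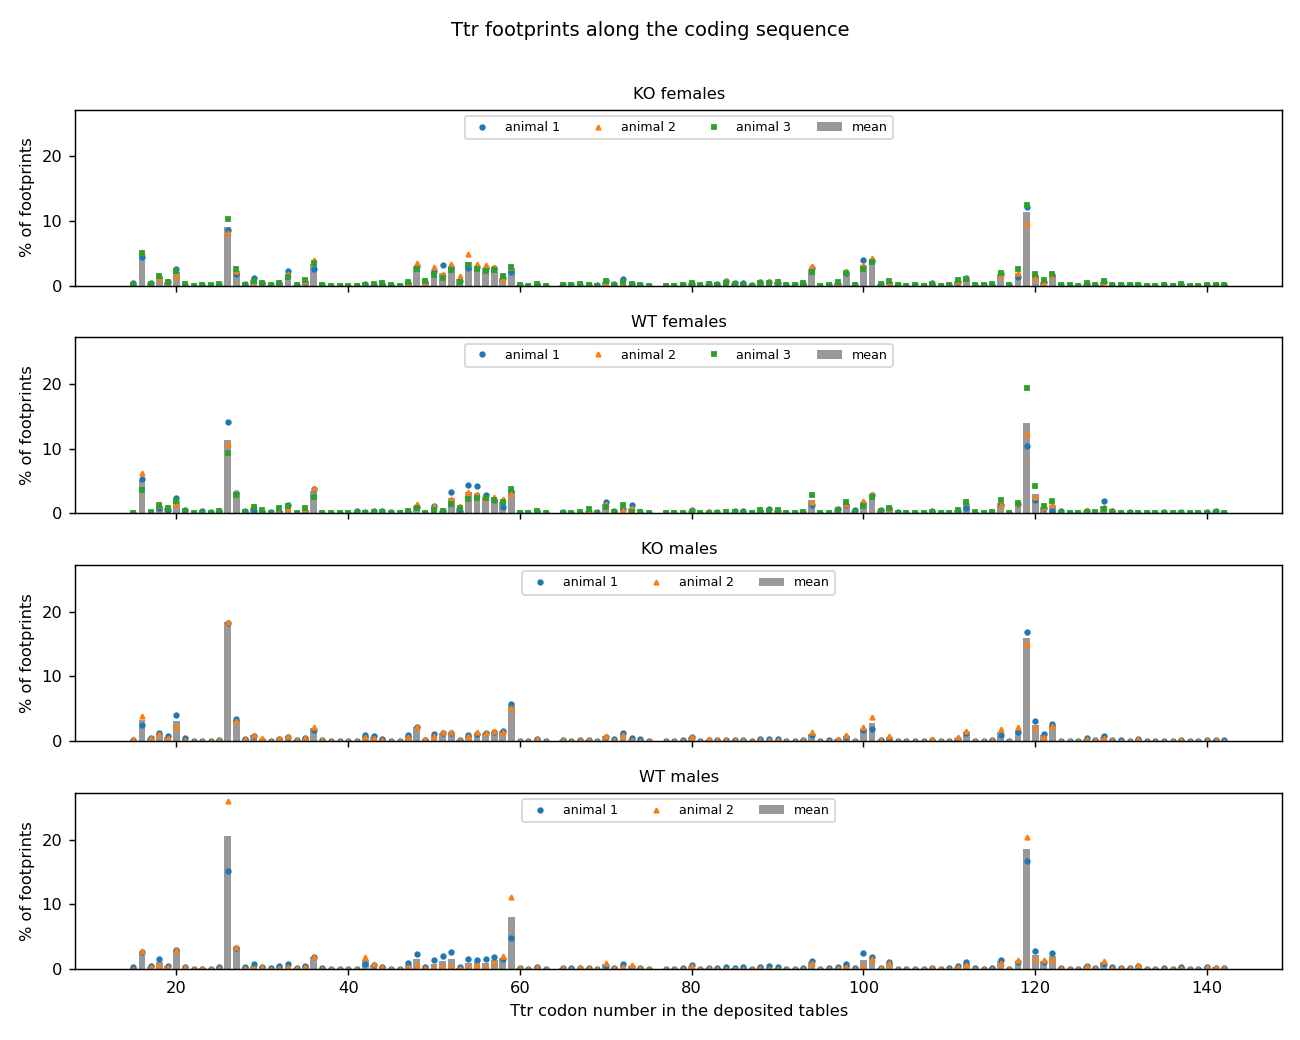
Share of Ttr footprints (percent) at each codon position of its coding sequence, with a panel for each group of animals, points for single animals and bars for the group mean. Peaks at codons 119 and 26 stand in all libraries, at 9.67% to 20.3% and 8.18% to 25.9%.

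Codons of Ttr read by queuosine tRNAs were 15 sites for asparagine, aspartate, histidine and tyrosine, set against 108 other sites. A site was taken 1 codon upstream of the listed codon. The log2 ratio of footprints per site at these codons to footprints per site elsewhere was 1.06, 0.92 and 1.12 in knockout females, against 0.58, 0.97 and 1.64 in wild-type females. In males it was 1.27 and 1.25 in knockout animals, against 1.25 and 1.32 in wild-type animals. The genotypes overlapped in both sexes, and the knockout minus wild-type difference was −0.03 for females, −0.02 for males and −0.02 for the sexes together (exact two-sided permutation within sex, 120 assignments, p = 0.867). The sign turned when the listed codon itself was taken as the site (0.08 in both sexes) and without the 5 sites with the most footprints (0.22), with exact permutation p values of 0.583 and 0.20. By amino acid, the difference was 0.38 in females and 0.66 in males for the 5 tyrosine sites, and −0.17 and −0.12 for the 6 aspartate sites. The 3 histidine sites differed by 0.45 and 0.40, and the 1 asparagine site by 0.28 and 0.50, all given without a test since each rests on few sites.

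The members moved together from animal to animal, with a few exceptions. The Pearson correlation of a member's log2 CPM with the mean of the other members over the 10 animals had a median of 0.975 in footprints and 0.968 in input RNA, over 0.9 for 25 and 27 of 33 members. It was lowest for Trpm3 in footprints (0.08) and for Slc22a8 in input RNA (−0.03). Over the 8 animals without wild-type females 1 and 2 the medians were 0.874 and 0.893. The animals share sex, age and library preparation in part, so these values describe these libraries. Outside the lists, of 10143 genes with at least 5 CPM on average in both assays, those most like the mean of the members by the lower of the 2 correlations were Mfrp (0.990), Ecrg4 (0.984), Drc7 (0.971), Trpv4 (0.970), Rbm47 (0.958) and Tmem237 (0.933). Next came Pltp (0.925), Gpx8 (0.921), Sema3b (0.919), Col8a2 (0.911), F11r (0.909) and Cd9 (0.886).

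Further genes of the same epithelium, from lists by known function, are set beside 2.81% of all genes called higher in female footprints and 0.748% in female input RNA. Of 14 further genes of fluid secretion, 1 rose in female footprints, Fxyd1, a modulator of the sodium pump (0.69, edgeR adjusted p = 0.0457). The summed footprints of these 14 genes went the other way, at 8065 to 8611 CPM in knockout females, against 8908 to 10420 CPM in wild-type females. Their mean log2 CPM was 7.171, 7.175 and 6.92 in knockout females, against 6.703, 6.558 and 7.16 in wild-type females. Of 19 further genes of nutrient, hormone and metal handling tested, 2 rose in female footprints: Cp, the ferroxidase ceruloplasmin (0.87, edgeR adjusted p = 0.0133), and the serotonin receptor gene Htr2c (0.66, adjusted p = 0.0459). Their median was 0.46, with 17 of 19 above 0. In female input RNA 3 of 20 rose, namely Cp (0.48, edgeR adjusted p = 0.0179), Slc29a4 (0.88, adjusted p = 0.0396) and Igfbp2 (0.58, adjusted p = 0.0486). Of 9 further junction genes tested, 3 rose in female footprints, Cldn1 (1.48, edgeR adjusted p = 0.0153), Ocln (0.88, adjusted p = 0.0189) and Cgnl1 (1.23, adjusted p = 0.0298), and of 10 in input RNA Ocln did (0.68, adjusted p = 0.0482). Without wild-type females 1 and 2, the nutrient and junction lists had 0 calls each in footprints, beside 0.891% of all genes.

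Markers of other cells and regions moved with the female comparison as well. Of 12 striatal genes, 12 lay below 0 in female footprints and 5 fell (beside 4.25% of all genes called lower), among them Rasd2 (−0.99, edgeR adjusted p = 0.0099). Their summed level was 303 to 758 CPM in knockout females, against 612 to 1423 CPM in wild-type females, and 297 to 326 CPM in knockout males, against 283 to 348 CPM in wild-type males, with no striatal marker at 0 in any library. Of 14 fibroblast genes of the meninges and stroma, 14 lay above 0 and 7 rose (beside 2.81% of all genes called higher), among them Ogn (1.25, edgeR adjusted p = 0.00867), Slc13a4 (1.04, adjusted p = 0.00965) and Col3a1 (1.57, adjusted p = 0.0103). They summed to 590 to 733 CPM in knockout females, against 373 to 522 CPM in wild-type females, and none was at 0. In males they summed to 558 to 599 CPM in knockout animals, against 695 to 730 CPM in wild-type animals, and so lay lower in both knockout males. Of 11 hippocampal neuron genes, 10 lay above 0 and 1 rose, Spink8 (1.19, edgeR adjusted p = 0.0298), beside the same 2.81%, with a summed level of 1206 to 1303 CPM in knockout females, against 754 to 1188 CPM in wild-type females. In males that sum was 1320 to 1465 CPM in knockout animals, against 1171 to 1295 CPM in wild-type animals. Of 14 ependymal genes tested 1 rose, Cfap126 (1.22, edgeR adjusted p = 0.0476), and of 10 endothelial genes none was called (lowest adjusted p = 0.0781). Of 5 erythrocyte genes 1 rose, Hba-a1 (1.17, edgeR adjusted p = 0.0347), while Hbb-bs (−0.03) and Hbb-bt (−0.10) lay below 0. Of 8 thalamic genes 1 rose, Calb2 (0.67, edgeR adjusted p = 0.0311), while Tac2 (−0.43), Tcf7l2 (−0.21) and Rora (−0.11) lay below 0. The other erythrocyte and thalamic genes lay above 0 without a call. These single calls stand beside the same 2.81% of all genes. In female input RNA all 6 erythrocyte genes lay above 0. Of these, Alas2 (0.85, edgeR adjusted p = 0.0273) and Hbb-bs (0.87, adjusted p = 0.0366) rose, beside 0.748% of all genes called higher. Their summed input was 177 to 301 CPM in knockout females, against 106 to 138 CPM in wild-type females. In males it was 188 to 239 CPM in knockout animals, against 173 to 191 CPM in wild-type animals. The part of these tissues in the differences of the choroid plexus genes was not tested. Without wild-type females 1 and 2, 2 striatal genes, 2 fibroblast genes and 3 hippocampal neuron genes were called in female footprints, beside 0.891% of all genes.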

How the data were processed

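Ribosome footprints and input RNA were measured in 20 libraries of 10 animals. The authors deposited whole-number counts per gene symbol without normalization, per the file headers. For footprint libraries they also deposited counts per codon of an mRNA and the covered share of a coding sequence as a percent, per the file headers, listing covered codons only. The submitters' processing notes name SAMtools 0.1.19, Bowtie 1.2.2 and 1.0.0, cutadapt 1.8.1 and Trimmomatic 0.39, and give no role or order. Not given in the sources used here are the build, the counting program and its strand rule. Reads of overlapping genes therefore cannot be told apart (Kcnj13 and Gigyf2, Car14 and Aph1a, Folr1 and Anapc15, Otx2 and Otx2os1, Cab39l and Cdadc1, Igf2 and Igf2os, Rdh5 and Bloc1s1).

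Tests used edgeR 4.0.16 in R 4.3.3 (quasi-likelihood F tests, TMM, filterByExpr on the 4 groups), fitted on the whole table, with 13143 genes tested in footprints, 14164 in input RNA and 14146 in the model of 20 libraries. All 33 members passed the filter in footprints and in the 20-library model and 32 in input RNA. Translational efficiency was the interaction of assay and genotype. Alternatives were RLE and upper quartile scaling, no filter, DESeq2 1.42.0, each sex alone, each animal left out and a block. Each lysate gave both libraries, per the labels' protocols and animal numbers, so the block on animal is given beside translational efficiency. Same-numbered males of both genotypes share an age in the labels, all but 1 of the females share another, and no label names a shared litter, batch or day. Tests were checked on simulated counts, drawn independently for each gene around a common profile per assay. That check held no genes that move together and no animals low in a set of genes. It therefore does not cover the pattern of these members. CPM used TMM within an assay, correlations log2 CPM with a prior count of 2.

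Members and lists were chosen with earlier results of these data known. Values are given in every library for Ttr, for members called in any comparison and for the 3 highest of each role group. Other lists name at most 6 called genes per comparison, some called genes are not reported here, and 12 genes outside them are named by correlation. Replicates of a group differed by chi-square per degree of freedom of 3.55 to 15.0, beyond counting error, and labels name separate animals. Counting floors of 3 counts cover counting error only. Columns of other samples numbered 0.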

Additional observations from a re-analysis of the deposited data

Results flagged for a closer look

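The genotypes did not overlap in Slc22a8 input RNA in either sex, and lay in opposite order in females and males. It stood at 20.1, 16.1 and 18.2 CPM in knockout females, against 15.8, 14.2 and 11.2 CPM in wild-type females, and at 13.8 and 12.2 CPM in knockout males, against 15.9 and 14.2 CPM in wild-type males. Every knockout female thus lay above every wild-type female and every knockout male below every wild-type male. The female minus male difference was 0.60 on the log2 scale and did not pass (edgeR adjusted p = 0.421). Neither sex passed on its own, at 0.39 in females (edgeR adjusted p = 0.136) and −0.21 in males (adjusted p = 0.76). Of all genes 11.8% had every knockout female higher and 18.5% had every knockout male lower in input RNA.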

How the results depend on the processing

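The count of members called in female comparisons depended on single animals. Leaving out 1 animal at a time gave 1 to 25 calls in female footprints and 0 to 20 in female input RNA, each highest without wild-type female 3 (beside 4.26% and 1.60% of all genes), and 0 to 10 in footprints of both sexes. Female footprints had 1 call without any of knockout females 1 and 2, wild-type females 1 and 2 and knockout males 1 and 2, beside 0.282% to 6.22% of all genes. They had 7 calls without knockout female 3, beside 4.23%. Without the filter on low counts 17 members were called in female footprints (beside 8.10% of all genes), 4 in female input RNA (beside 3.73%) and 2 in footprints of both sexes. DESeq2 called 2 in female input RNA, beside 5.08% of all genes, and 1 in footprints of both sexes. For these counts in both sexes the share of all genes is not given here. Without wild-type females 1 and 2, chosen after seeing the data, 1 member was called in female footprints (beside 0.891% of all genes) and 0 in female input RNA (beside 3.46%).

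Same-numbered animals of both genotypes did not deviate together: correlations were −0.121, −0.177 and −0.207 in female footprints, −0.114, −0.210 and −0.208 in female input RNA, −0.0778 in male footprints and 0.0944 in male input RNA, where same-numbered males share an age. With the replicate block 1 member (Slc22a8) was called in female footprints, beside 2.34% of all genes, and 0 in female input RNA, beside 2.29%. In either male comparison 0 members were called, as without the replicate block. For translational efficiency the block on animal called 3 members in females and 1 in both sexes, against 0 without it, and leaving out animals with or without the block gave 0 to 4 in females and 0 to 5 in both sexes.

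Differences near 0 changed sign. The translational efficiency of Ttr with the block on animal was 0.022 in females, −0.010 in males and 0.0060 over the sexes together, −0.015 in males with upper quartile scaling, −0.013 with male libraries alone and −0.0086 with the block without wild-type females 1 and 2. Leaving out 1 animal gave −0.23 to 0.25 for females, −0.12 to 0.12 for males and −0.16 to 0.13 for the sexes together. Leaving out 1 animal likewise gave −0.42 to 0.19 for Ttr in male footprints and −0.33 to 0.13 in male input RNA, −0.011 to 0.37 for Sulf1 in female footprints, and −0.28 to 0.057 for Enpp2 in male input RNA. In female input RNA it gave −0.11 to 2.14 for Lmx1a and −0.021 to 0.24 for Cab39l, and for Cab39l −0.012 to 0.14 in male input RNA and −0.093 to 0.17 for its sex difference. Without wild-type females 1 and 2, female footprints stood at −0.048 for Clic6, −0.15 for Sulf1, −0.15 for Krt18 and −0.055 for Msx1, and Ttr footprints of both sexes at −0.012. Female input RNA then stood at −0.16 for Enpp2, −0.10 for Sulf1, −0.53 for Lmx1a and −0.16 for Cab39l, input RNA of both sexes at −0.13 for Enpp2 and −0.043 for Cab39l, and the sex difference at −0.061 for Enpp2 and −0.23 for Cab39l. Ttr occupancy at queuosine codons was 0.081 at the listed codon itself, 0.22 without the 5 highest sites and −0.14 to 0.12 with 1 animal left out.

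The calls of footprint against input numbered 23 to 30. Igf2, Lmx1a, Wfdc2, Cox8b and Tmem72 had 0 counts in at least 1 library, where a level under that of 3 counts could not be seen. The cause of these changes was not tested.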

Other observations

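Relative to Ttr, several members lay apart by sex, a pattern looked at after the values were seen. Per 1000 CPM of Ttr, 13 of 32 members had all 6 females above all 4 males in footprints, and 10 of 32 did in input RNA. Prlr is one example, with 5.55, 4.80 and 4.23 CPM per 1000 CPM of Ttr in knockout females, against 20.7, 11.8 and 3.47 CPM in wild-type females. In males its footprints stood at 1.38 and 1.54 CPM in knockout animals, against 1.75 and 1.59 CPM in wild-type animals. Kl and Enpp2 are others, with a lowest female of 21.7 and 399 CPM and a highest male of 18.0 and 391 CPM per 1000 CPM of Ttr. The highest values of Prlr lay in wild-type females 1 and 2, where Ttr was lowest, and no test was made. Ttr itself took 0.0115% to 0.872% of footprints in females, against 0.846% to 1.34% in males. A gene that did not follow Ttr can therefore show this order. The share of all genes that do so was not taken, so the counts show no trait of these members.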
